A study of Rattus norvegicus with 30 samples.

Results

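The transcripts of red cells were followed through lung RNA-seq libraries of rats with severe acute pancreatitis (SAP). In all, 6 of the 22914 genes with read counts were chosen by name, with earlier results of these data known, and the rule for them used no measured value: the hemoglobin chains Hba1, Hba2 and Hbb, and the red cell genes Alas2, Slc4a1 and Ahsp. All 6 were found in the count and level tables and all 6 were among the 15934 genes that passed the filter on low counts. Ahsp was the most sparsely counted of them, with 14 to 606 reads per library, against 4088 to 131239 reads for Hba1.

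The libraries came from 30 male Sprague Dawley rats, 8 weeks old and 180 to 220 g, in 10 groups of 3 rats, and each library is 1 rat's lung. In the Sham groups the pancreas was only moved at surgery, and the control (Con) rats had saline run into their biliopancreatic duct. Rats of the SAP, DEX and Emo groups received 5.0% sodium taurocholate, a bile salt, into the duct at 0.1 mL per 100 g, which brings on pancreatitis and, through it, lung injury. DEX rats were in addition given dexamethasone, a glucocorticoid, intravenously at 10 mg/kg, and Emo rats were given emodin, a plant anthraquinone, into the stomach. The labels give the emodin dose as 10 mg/kg in one place and as 40 mg/kg in another. Doses followed at 2 and 12 h after surgery, so rats killed at 6 h had received 1 dose and rats killed at 24 h had received both. Every rat was fasted, anaesthetised with pentobarbital and operated on, every rat was bled from the abdominal aorta at the end, and groups without a drug were given its vehicle. According to the study's methods the lung vessels were irrigated with saline through the pulmonary artery. How much blood stayed in each sample was not measured.

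Mature red cells have no nucleus, and their youngest circulating form, the reticulocyte, still carries the messenger RNA made in the bone marrow. Most of that RNA encodes the alpha and beta chains of hemoglobin, which pair and bind heme to carry oxygen. In a lung sample such transcripts can come with blood, and some lung epithelial cells are known to make globin chains as well. In bulk tissue, fewer cells of a type and less RNA per cell cannot be told apart.

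Depth was 16813949 to 34692306 reads on genes per library, with the lowest in SAP-6h replicate 3. The lung label held in the data: the summed level of 12 lung epithelial markers, surfactant genes such as Sftpc and Sftpb among them, lay between 52230 and 96748 FPKM in all 30 libraries. FPKM are fragments scaled to transcript length and to the size of the library. Across the 12 rows for hemoglobin chains, the share of reads ran from 0.0328% to 0.910%, with a median of 0.432% over the 15 libraries at 6 h and 0.140% over the 15 at 24 h. The 3 SAP-6h libraries held 0.622% to 0.910%, and the 3 Emo-24h libraries held 0.0328% to 0.144%. Each library is 1 rat, so the spread between replicates joins differences between animals with those of tissue sampling and library preparation.

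The globin loci are shown first because the alpha chains come from near-identical copies, whose reads may be shared or lost in mapping. The 250 bases before the start site are given 5′ to 3′ from RefSeq on the build GRCr8, with 3 short motifs known from red cell promoters in capitals. They are GATAA, read by GATA factors, its reverse complement TTATC, then CACCC, read by Klf1 and its relatives, its reverse complement GGGTG, then CCAAT, the CCAAT box, and its reverse complement ATTGG. The names Hba1 and Hba2 of the deposited tables could not be paired one by one with the RefSeq names Hba-a1 and Hba-a2, so the stretches stand under their RefSeq names. Klf1, an erythroid transcription factor, is shown because its level followed the 6 genes closely. Hba-a1 lies at chr10:15842581-15842830 and Hba-a2 at chr10:15829139-15829388, both on the minus strand. Hbb lies at chr1:167663722-167663971 and Klf1 at chr19:40158652-40158901, both on the minus strand, and Alas2 at chrX:22895200-22895449 on the plus strand.
Hba-a1: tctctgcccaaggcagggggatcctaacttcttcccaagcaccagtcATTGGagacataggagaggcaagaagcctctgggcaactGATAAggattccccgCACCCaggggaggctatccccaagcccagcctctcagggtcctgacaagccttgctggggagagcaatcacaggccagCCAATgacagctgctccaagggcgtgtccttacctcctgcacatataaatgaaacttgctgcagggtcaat
Hba-a2: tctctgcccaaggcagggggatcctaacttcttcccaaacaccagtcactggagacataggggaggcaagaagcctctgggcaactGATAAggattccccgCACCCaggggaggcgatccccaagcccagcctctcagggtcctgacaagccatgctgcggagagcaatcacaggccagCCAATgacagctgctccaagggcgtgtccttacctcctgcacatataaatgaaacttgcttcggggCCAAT
Hbb: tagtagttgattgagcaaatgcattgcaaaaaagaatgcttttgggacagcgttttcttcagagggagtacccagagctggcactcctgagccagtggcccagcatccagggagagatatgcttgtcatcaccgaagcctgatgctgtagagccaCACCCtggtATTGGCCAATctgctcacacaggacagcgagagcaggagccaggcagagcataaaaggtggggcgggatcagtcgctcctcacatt
Alas2: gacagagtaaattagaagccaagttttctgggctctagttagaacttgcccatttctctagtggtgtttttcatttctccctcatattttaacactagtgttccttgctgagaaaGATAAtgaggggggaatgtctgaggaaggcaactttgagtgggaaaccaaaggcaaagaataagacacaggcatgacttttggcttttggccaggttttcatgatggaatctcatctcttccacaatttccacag
Klf1: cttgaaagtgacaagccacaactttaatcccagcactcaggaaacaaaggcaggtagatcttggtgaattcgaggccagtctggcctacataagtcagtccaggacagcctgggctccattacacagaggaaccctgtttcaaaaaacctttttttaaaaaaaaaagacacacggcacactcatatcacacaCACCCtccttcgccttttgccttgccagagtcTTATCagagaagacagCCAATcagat
Slc4a1 and Ahsp are named only. The Hba-a1 and Hba-a2 stretches were identical at 241 of 250 bases (96.4%), with 9 differences. GATAA stood 164 bases before the start in both alpha genes, 135 bases before it in Alas2 and, on the reverse strand, 26 bases before it in Klf1, and these letters were not in the Hbb stretch. CACCC stood at 149 bases in both alpha genes, at 95 in Hbb and at 58 in Klf1. The Hbb stretch held CCAAT at 81 bases directly beside its reverse complement at 86. Of all 33360 promoter stretches of this length, 23.5% held GATAA, 49.2% held CACCC and 34.0% held CCAAT on one strand or the other, so a match is a description of letters and not a binding site.

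Hba1 (ENSRNOG00000029886, chromosome 10) had the highest median level of the 6 and ranged from 209.6 to 7143 FPKM, a 34.1-fold range, and ranked between 5th and 317th of 22907 genes by FPKM. At 6 h, Hba1 stood at 2711, 926 and 577 FPKM in the Sham rats, at 1861, 2861 and 5191 in Con, at 4408, 5750 and 7143 in SAP, at 3049, 4365 and 631 in DEX, and at 5367, 5883 and 2263 in Emo. At 24 h it stood at 364, 487 and 2456 FPKM in Sham, at 1047, 1347 and 1526 in Con, at 771, 1333 and 878 in SAP, at 1174, 1008 and 988 in DEX, and at 905, 209.6 and 232 in Emo. Every SAP, Con and Emo rat at 24 h lay below every rat of the same treatment at 6 h, whereas the 6 h and 24 h values overlapped in Sham and DEX. Replicate 1 of Sham-6h and replicate 3 of Sham-24h were several times above the other Sham rats of their time, and replicate 3 of DEX-6h was far below the other DEX-6h rats.

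Hba2 (ENSRNOG00000047321, chromosome 10), the second alpha row, followed the same course at a lower level. It ranged from 83.9 to 3130 FPKM, with a median of 1306 at 6 h and 302 at 24 h. In SAP rats Hba2 was at 1881, 2490 and 3130 FPKM at 6 h and at 255, 463 and 302 at 24 h. In Emo rats it was at 2482, 2853 and 962 FPKM at 6 h and at 283, 83.9 and 107 at 24 h. Neither pair of groups overlapped. The Hba2 to Hba1 ratio of FPKM stayed between 0.305 and 0.541 in all 30 libraries. Multi-mapped reads were discarded before counting, so the split between these 2 rows is uncertain.

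Hbb (ENSRNOG00000058105, chromosome 1), the adult beta chain, ranged from 77.5 to 2330 FPKM, with a median of 962 at 6 h and 409 at 24 h. The SAP-6h rats stood at 1819, 2330 and 2273 FPKM, above all other libraries, and the SAP-24h rats at 407, 829 and 604. Emo-6h rats stood at 1228, 1446 and 707 FPKM and Emo-24h rats at 434, 77.5 and 83.0. Hbb in DEX-6h was 962, 1761 and 135 FPKM, a wider span than in DEX-24h at 427, 656 and 367. As with Hba1, the 6 h and 24 h values were separate in SAP and Emo and overlapped in Sham and DEX, and for Hbb they overlapped in Con too.

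Alas2 (ENSRNOG00000000167, chromosome X) encodes the erythroid form of the first enzyme of heme synthesis. Its level was far below that of the globins, from 0.46 to 27.5 FPKM (26 to 1367 reads), and its range was 59.8-fold. Alas2 was at 14.0, 19.0 and 27.5 FPKM in SAP-6h against 1.25, 4.31 and 2.67 in SAP-24h, and at 15.9, 15.3 and 8.72 in Emo-6h against 2.64, 0.80 and 0.46 in Emo-24h. Both drops left no overlap. In Sham-6h it was at 10.2, 2.89 and 2.02 FPKM and in Sham-24h at 1.34, 1.54 and 6.6, with the same high rats as for Hba1.

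Slc4a1 (ENSRNOG00000020951, chromosome 10) encodes band 3, the anion exchanger of the red cell membrane. Its range was the widest of the 6, from 0.14 to 29.1 FPKM (23 to 2774 reads, 208-fold). At 6 h, Slc4a1 was at 4.97, 0.33 and 0.35 FPKM in Sham, at 2.23, 2.05 and 7.54 in Con, at 7.26, 11.7 and 29.1 in SAP, at 0.37, 14.1 and 0.39 in DEX, and at 8.32, 3.03 and 6.70 in Emo. At 24 h no library exceeded 2.71 FPKM, the value of Sham-24h replicate 3, and the median was 0.81. The DEX-6h rats spanned 38.0-fold, the widest span within any group for any of the 6 genes, with replicate 2 high and the other two at 0.37 and 0.39.

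Ahsp (ENSRNOG00000020165, chromosome 1) encodes the chaperone that holds free alpha chains until they meet a beta chain. It ranged from 0.71 to 30.8 FPKM, with a median of 8.19 at 6 h and 2.52 at 24 h. Ahsp was at 11.9, 26.5 and 30.8 FPKM in SAP-6h and at 0.71, 2.27 and 2.78 in SAP-24h, with no overlap. In Emo rats it was at 9.96, 4.33 and 13.6 FPKM at 6 h and at 3.41, 4.76 and 2.05 at 24 h, and these overlapped. It was the only one of the 6 whose Emo groups overlapped.

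**Figure D1:**
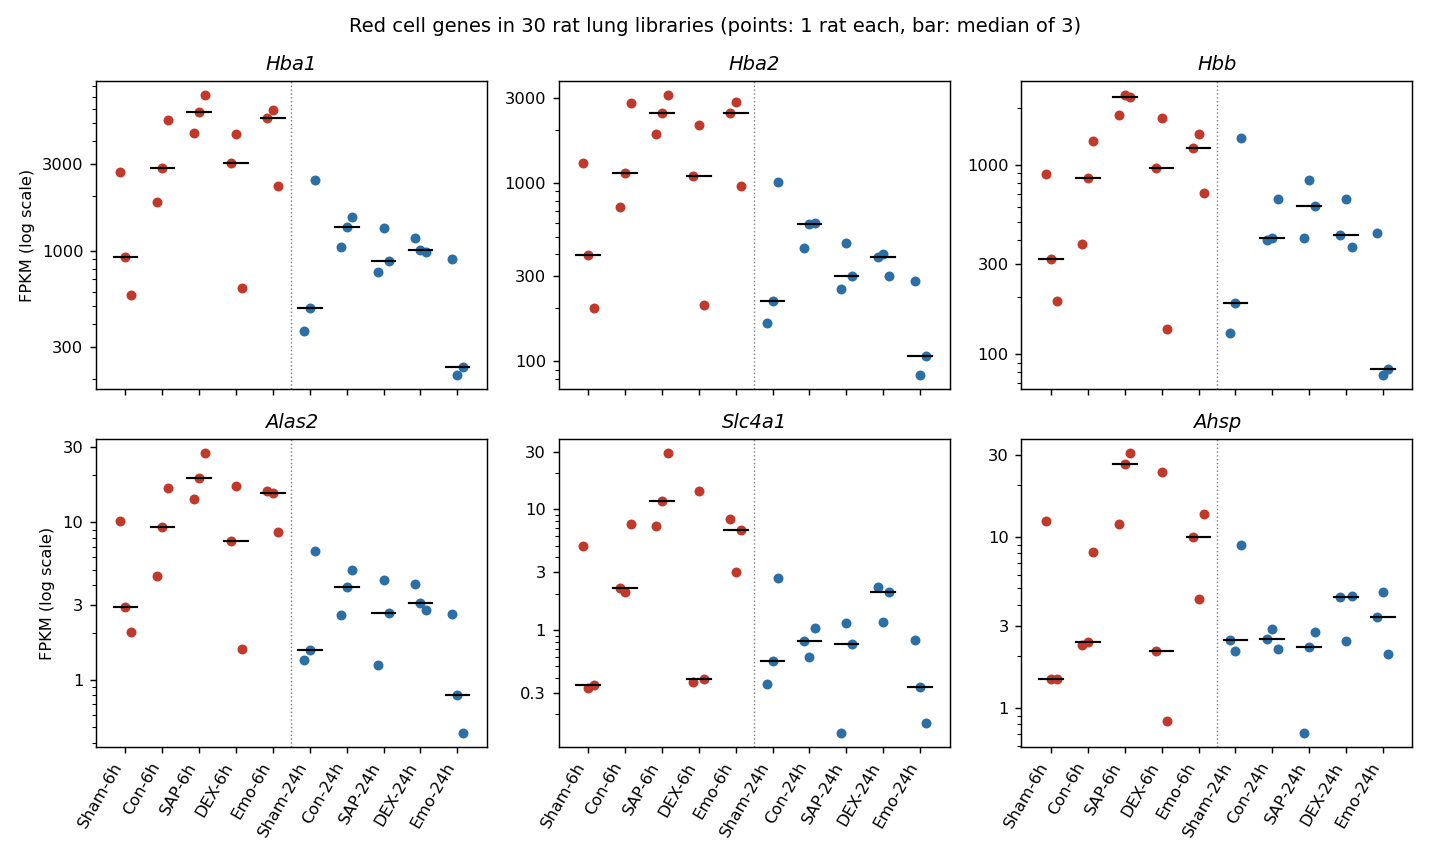
FPKM of Hba1, Hba2, Hbb, Alas2, Slc4a1 and Ahsp in each of 30 rat lungs on a log axis, 1 panel per gene, with 6 h and 24 h points in each treatment group and a bar at the median of 3 rats. SAP-6h holds the highest group median in each panel, and replicates within DEX-6h and Sham lie far apart.

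Ordered by group mean, SAP-6h was highest and Emo-6h was next for each of the 6 genes. The SAP-6h mean of Hba1 was 5767 ± 1368 FPKM (SD, n = 3), Emo-6h was at 4504 ± 1958, Con-6h at 3305 ± 1709, DEX-6h at 2682 ± 1894 and Sham-6h at 1405 ± 1145. The 24 h groups followed, with Con-24h at 1307 ± 242, Sham-24h at 1102 ± 1174, DEX-24h at 1057 ± 102, SAP-24h at 994 ± 298 and Emo-24h at 449 ± 395. Emo-24h was lowest for all but Ahsp, for which SAP-24h was lowest at 1.92 ± 1.08 FPKM. Neighbours in the order overlapped in range for every gene, with 1 exception: the 3 SAP-6h values of Hbb (mean 2141 ± 280) lay above the 3 Emo-6h values (1127 ± 380). In a few other pairs the gap between the means exceeded the larger SD although the ranges overlapped, by 1.67 times for Hba2 and 1.38 times for Hba1 in SAP-24h against Emo-24h, and by 1.39 times for Ahsp and 1.01 times for Alas2 in SAP-6h against Emo-6h.

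The first comparison set 24 h against 6 h, averaged over the 5 treatments with equal weight. All 6 genes were lower at 24 h, between 2.21-fold for Hbb and 5.75-fold for Slc4a1. A gene was called when the adjusted p was under 0.05 and the change at least 2-fold. By that rule 6 of 6 were called lower, where 2.61% of all 15934 genes tested were called lower, and the median log2 change of all genes was 0.01. In the quasi-likelihood test of edgeR, adjusted over all genes by Benjamini-Hochberg, Hba1 fell by 1.76 on the log2 scale (SE 0.318, adjusted p = 0.000107) and Hba2 fell by 2.02 (SE 0.339, adjusted p = 4.66e-05). Hbb fell by 1.14 (SE 0.365, adjusted p = 0.0126 in the same edgeR test). The heme enzyme gene Alas2 fell by 1.93 (SE 0.339, adjusted p = 7.85e-05) and the membrane gene Slc4a1 fell by 2.52 (SE 0.526, adjusted p = 0.000432), again in edgeR. The chaperone gene Ahsp fell by 1.43 (SE 0.412, adjusted p = 0.00652 by edgeR). Hba1, Hba2, Alas2 and Slc4a1 were called with any 1 of the 30 libraries left out. Hbb at -0.98 and Ahsp at -0.91 missed the 2-fold limit without DEX-6h replicate 2 (edgeR adjusted p = 0.0295 and 0.0318), and Hbb missed it at -0.97 without Sham-6h replicate 1.

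Each treatment was then tested alone. In SAP rats 5 of 6 genes were called lower at 24 h, with 1.74% of all genes called lower. Slc4a1 fell by 4.47 on the log2 scale (SE 1.27, edgeR adjusted p = 0.0380) and Ahsp fell by 3.49 (SE 0.982, adjusted p = 0.0375). Alas2 fell by 2.79 (SE 0.775, edgeR adjusted p = 0.0353), Hba2 fell by 2.78 (SE 0.780, adjusted p = 0.0372) and Hba1 fell by 2.44 (SE 0.728, adjusted p = 0.0476). Hbb had a log2 change of -1.71 (SE 0.828, edgeR adjusted p = 0.202) and was not called. All 5 calls stood close to the threshold: 0 remained when SAP-6h replicate 1, 2 or 3, or SAP-24h replicate 1 or 3, was left out, and Hba2, Alas2 and Slc4a1 alone were called without SAP-24h replicate 2. With any 1 of these 6 rats left out, the log2 change was -2.68 to -2.26 for Hba1 and -3.04 to -2.59 for Hba2. Alas2 was then at -3.25 to -2.46, Slc4a1 at -5.07 to -3.72 and Ahsp at -3.82 to -3.12. In these 6 fits 0.841% to 1.65% of all genes were called lower. The 3 FPKM values at 24 h lay below the 3 values at 6 h for 6 of 6 genes, and the same was true of 17.8% of all genes.

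In Emo rats 5 of 6 were also called lower at 24 h, where 3.08% of all genes were called lower. Hba2 fell by 3.78 on the log2 scale (SE 0.816, edgeR adjusted p = 0.00127), Alas2 fell by 3.43 (SE 0.810, adjusted p = 0.00259) and Hba1 fell by 3.39 (SE 0.758, adjusted p = 0.00170). Slc4a1 fell by 3.84 (SE 1.25, edgeR adjusted p = 0.0213) and Hbb fell by 2.57 (SE 0.855, adjusted p = 0.0232). Ahsp, at -1.51 (SE 0.916, edgeR adjusted p = 0.208), was not called. Hba1, Hba2 and Alas2 were called with any 1 of these 6 rats left out, and the count went down to 3 without Emo-6h replicate 1, Emo-24h replicate 2 or Emo-24h replicate 3, fits in which 2.34% to 2.81% of all genes were called lower. With 1 of the 6 rats left out, the log2 change was -4.58 to -3.48 for Slc4a1 and -3.83 to -2.20 for Hbb. Values were separate for 5 of 6 genes, against 21.4% of all genes.

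In the other treatments none of the 6 was called by edgeR or, in the alternative tool, by DESeq2, and at an unadjusted p under 0.05 stood 1 of the 6 in DEX (Hba2, p 0.0362), beside 37.8% of all genes, and 0 in Con and Sham, beside 10.5% and 20.4%. DESeq2 called 4.52% of all genes lower in DEX, 0.596% in Con and 0.264% in Sham. In DEX rats, where 3.91% of all genes were called lower, log2 changes ran from -0.99 for Hbb to -1.66 for Hba2, with edgeR adjusted p from 0.105 to 0.392. All 6 overlapped between the times, where 21.6% of all genes were lower without overlap. The values of Slc4a1 and Ahsp in DEX turned on 1 rat: without DEX-6h replicate 2, Slc4a1 went from -1.46 to 2.27 and Ahsp from -1.25 to 1.35, while without DEX-6h replicate 3 there was 1 call, Hba2, beside 3.41% of all genes called lower in that fit. In Con rats the 6 changes ran from -0.72 for Ahsp to -2.23 for Slc4a1 (edgeR adjusted p 0.497 to 0.855), in a comparison where 0% of all genes were called lower. Hba1, Hba2 and Slc4a1 were lower in Con without overlap, 3 of 6 beside 9.38% of all genes. In Sham rats the changes ran from -0.64 for Alas2 to 0.31 for Hbb (edgeR adjusted p 0.677 to 0.943), where 0.0126% of all genes were called lower. The direction in Sham turned on single rats: without Sham-6h replicate 1 all 6 changes were positive, from 0.36 for Alas2 to 1.84 for Slc4a1, and without Sham-24h replicate 3 all 6 were negative, from -1.15 for Ahsp to -2.04 for Slc4a1, with none called. None of the 6 was separate between the Sham times, beside 11.6% of all genes. Averaged over Sham and Con alone, 0 of 6 were called, where 0.690% of all genes were called lower. Averaged over SAP, DEX and Emo alone, 6 of 6 were called lower, beside 3.86% of all genes. Both averages were added after the data were seen. A call in one treatment and not in another is no test of a difference between them.

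**Figure D2:**
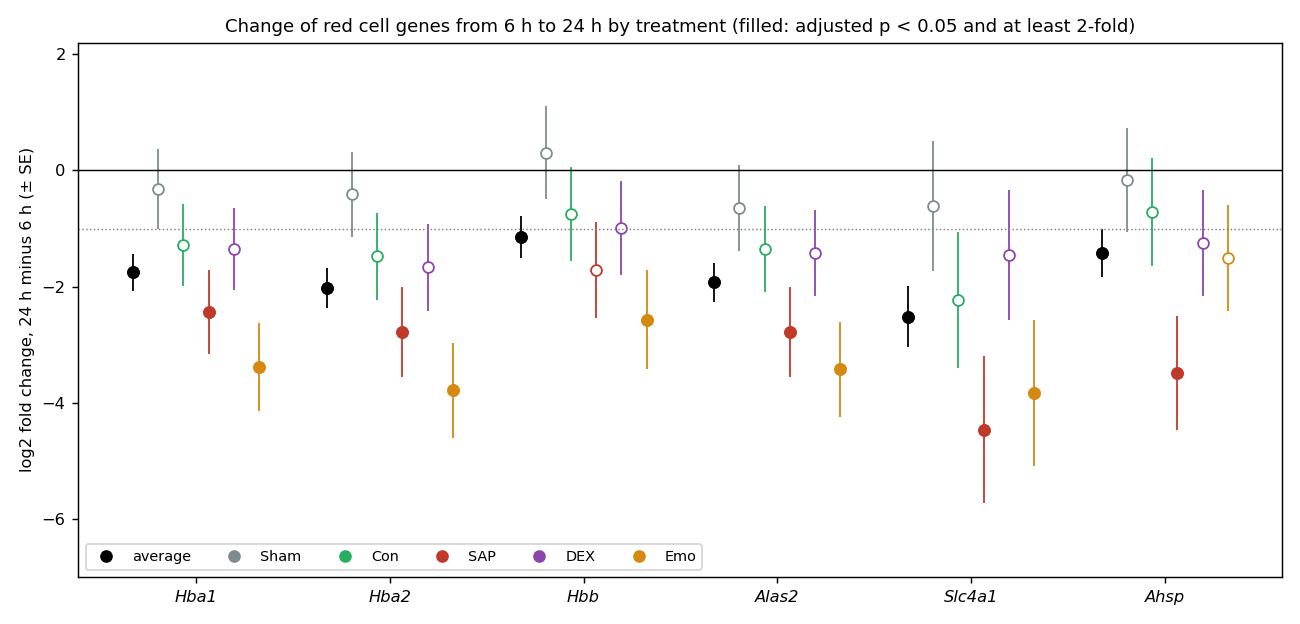
Log2 fold change from 6 h to 24 h of the 6 genes in each treatment (3 rats against 3) and averaged over the 5 treatments, with bars of 1 standard error and filled points for calls. Calls are seen in SAP (5 genes), Emo (5 genes) and the average (6 genes), while the Sham points lie between -0.64 and 0.31 and change direction with single rats left out.

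Tests of that difference made no call in edgeR or DESeq2. Of all genes, DESeq2 called 0.759% for SAP less Sham, 1.09% for DEX less SAP and 3.75% for Emo less SAP. The change over time in SAP less that in Sham was negative for all 6, from -2.02 for Hbb to -3.85 for Slc4a1, with edgeR adjusted p from 0.288 to 0.493, where 0.0314% of all genes were called. At an unadjusted p under 0.05 stood 4 of the 6 (Ahsp, Slc4a1, Hba2 and Hba1, p 0.0181 to 0.0423), beside 12.6% of all genes. The change in DEX less that in SAP was 0.72 for Hbb to 3.01 for Slc4a1 (edgeR adjusted p 0.419 to 0.824, with 0.138% of genes called). The change in Emo less that in SAP was -1.0 for Hba2 to 1.98 for Ahsp (edgeR adjusted p 0.363 to 0.856, with 1.68% of genes called). In both of these, 0 of the 6 had an unadjusted p under 0.05, beside 13.6% and 23.4% of all genes. A contrast added after the data were seen set the 3 taurocholate treatments against Sham and Con. Its values were -1.54 to -1.83, with unadjusted p from 0.0135 to 0.0904 (4 of 6 under 0.05, beside 20.2% of all genes), edgeR adjusted p from 0.138 to 0.327 and 0.577% of all genes called. DESeq2 called 1.17% of all genes in this contrast.

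The second question was whether the red cell genes differed with pancreatitis or a drug at one time. At 6 h, SAP rats had higher fitted levels than Sham rats for each gene, with log2 differences of 2.08 for Hba1 (SE 0.719), 2.03 for Hba2, 2.24 for Hbb, 2.05 for Alas2, 3.12 for Slc4a1 and 2.19 for Ahsp. None was called, since edgeR's adjusted p lay between 0.195 and 0.294 where the unadjusted p lay between 0.00797 and 0.0253. Of all genes, 13.1% had an unadjusted p under 0.05 and 0.220% were called. Sham-6h replicate 1 lay well above the other two Sham-6h rats for each of the 6 genes. Without it the differences were 2.97 for Hba1, 3.10 for Hba2, 3.11 for Hbb, 3.06 for Alas2, 5.59 for Slc4a1 and 3.98 for Ahsp, and again 0 were called, beside 0.105% of all genes in that fit. Against Con-6h the SAP-6h differences were 0.75 for Hba2 to 2.47 for Ahsp (edgeR adjusted p 0.320 to 0.787, with 1 of the 6, Ahsp, at an unadjusted p under 0.05 beside 10.4% of all genes, and 0.163% of genes called). With the 3 taurocholate groups averaged against Sham and Con at 6 h, the differences were 0.93 to 1.58, edgeR adjusted p was 0.130 to 0.234 and 0 were called, with 1.79% of all genes called. At an unadjusted p under 0.05 stood 4 of the 6 (Ahsp, Hba1, Slc4a1 and Hbb, p 0.0237 to 0.0471), beside 25.0% of all genes. Without Sham-6h replicate 1, 2 of the 6 were called in that average, Slc4a1 and Ahsp, beside 1.55% of all genes called in that fit. At 24 h the same average gave -0.18 to -0.86, 0 calls and 2.76% of all genes called, with 0 of the 6 at an unadjusted p under 0.05 beside 29.8% of all genes. In the study's mapping summary every SAP, DEX and Emo library had a lower share of uniquely mapped reads than every Sham and Con library. The part of this share in the differences was not tested.

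The drugs were set against SAP at each time. DEX-6h was below SAP-6h by log2 values of -1.07 for Hba1 to -1.65 for Slc4a1, none called (edgeR adjusted p 0.592 to 0.677, 0.515% of genes called). Slc4a1 and Ahsp were called lower in DEX-6h once its replicate 2 was left out, beside 0.557% of all genes called in that fit. Emo-6h differed from SAP-6h by -0.26 for Hba2 to -1.40 for Slc4a1 (edgeR adjusted p 0.528 to 0.902, 0.0251% of genes called). At 24 h, DEX differed from SAP by -0.42 for Hbb to 1.36 for Slc4a1, with 3.73% of genes called, and Emo differed from SAP by -1.80 for Hbb to 0.68 for Ahsp, with 3.19% of genes called. The Hbb value in Emo had an unadjusted p of 0.0409 and an edgeR adjusted p of 0.171, and 26.3% of all genes had an unadjusted p under 0.05 there. SAP-24h less Sham-24h was 0.22 for Hbb and -1.13 for Ahsp at its ends, with 5.00% of genes called. Apart from Hbb in Emo-24h, none of the 6 had an unadjusted p under 0.05 in these 5 comparisons, beside 12.1% to 28.4% of all genes.

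None of the 6 was called in the remaining pairs of groups by edgeR with all 10 groups in the model or by DESeq2. With the 2 groups fitted alone, edgeR called 1, Slc4a1 in Emo-24h against DEX-24h, beside 5.40% of all genes called in that fit. At 6 h these were Sham against Con (0% of genes called), DEX against Sham (3.97%), Emo against Sham (0.477%) and Emo against DEX (1.41%). At 24 h they were SAP against Con (6.91%), Sham against Con (1.00%), DEX against Sham (4.15%), Emo against Sham (0%) and Emo against DEX (5.06%). These shares are from edgeR with all 10 groups. In DESeq2 they were, in the same order, 0.0439%, 4.79%, 1.10% and 2.44% at 6 h. The 24 h shares in DESeq2 were 7.52%, 1.36%, 5.14%, 0% and 6.19%. At an unadjusted p under 0.05 stood 2 of the 6 in Emo-6h against Sham-6h, Hba1 at 1.72 (p 0.0238) and Hba2 at 1.76 (p 0.0278), beside 22.6% of all genes. In Emo-24h against Sham-24h 1 of the 6 did, Hba2 at -1.61 (p 0.0422), beside 3.00% of all genes. In the other 7 pairs 0 of the 6 did, beside 8.61% to 35.1% of all genes. These comparisons share groups and so are not independent of each other. With all 10 groups in the model, the 6 genes had calls in 2 of 21 pairs of groups, both of them a time comparison.

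The 6 genes were then set against each other over the 30 libraries, on the scale log2(FPKM + 1), in 15 pairs. Hba1 and Hba2 had a Pearson r of 0.99 (Spearman rho 0.99), Hba1 and Alas2 one of 0.98 (rho 0.97), and Hba1 and Hbb one of 0.95 (rho 0.93). Each of these had a permutation p of 1e-05, the smallest that 100000 permutations give, and an adjusted p of 1e-05 over the 15 pairs. With the 2 libraries farthest from the median of the first gene left out, r was 0.99, 0.98 and 0.93. The libraries share the time and treatment differences described above, and in deviations from the group means r was 0.98 for Hba1 and Hba2, 0.95 for Hba1 and Alas2 and 0.97 for Hba1 and Hbb. Differences between rats of one group were thus shared by the globins and Alas2.

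Slc4a1 and Ahsp had r of 0.93 with each other (rho 0.84, permutation p 1e-05, r of 0.90 without the 2 farthest libraries). Slc4a1 had r of 0.82 with Hba1, 0.84 with Hba2, 0.78 with Hbb and 0.89 with Alas2, each with a permutation p of 1e-05 that takes no account of differences between the groups. In deviations from the group means these r values were 0.66, 0.70, 0.64 and 0.79. Ahsp had the lowest values with the globins: r of 0.68 with Hba1 (rho 0.63, permutation p 5e-05), 0.71 with Hba2 and 0.68 with Hbb. In deviations from the group means these were 0.64, 0.68 and 0.64, close to those of Slc4a1. Over the 15 libraries at 6 h, Ahsp had r of 0.76 with Hba1, 0.77 with Hba2 and 0.82 with Hbb. Over the 15 at 24 h these were 0.26, 0.26 and 0.20 (permutation p 0.347, 0.343 and 0.48). The difference between the times was not tested. At 24 h the Ahsp counts were small, at 14 to 174 reads a library, and the part of counting error in it was not tested.

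**Figure D3:**
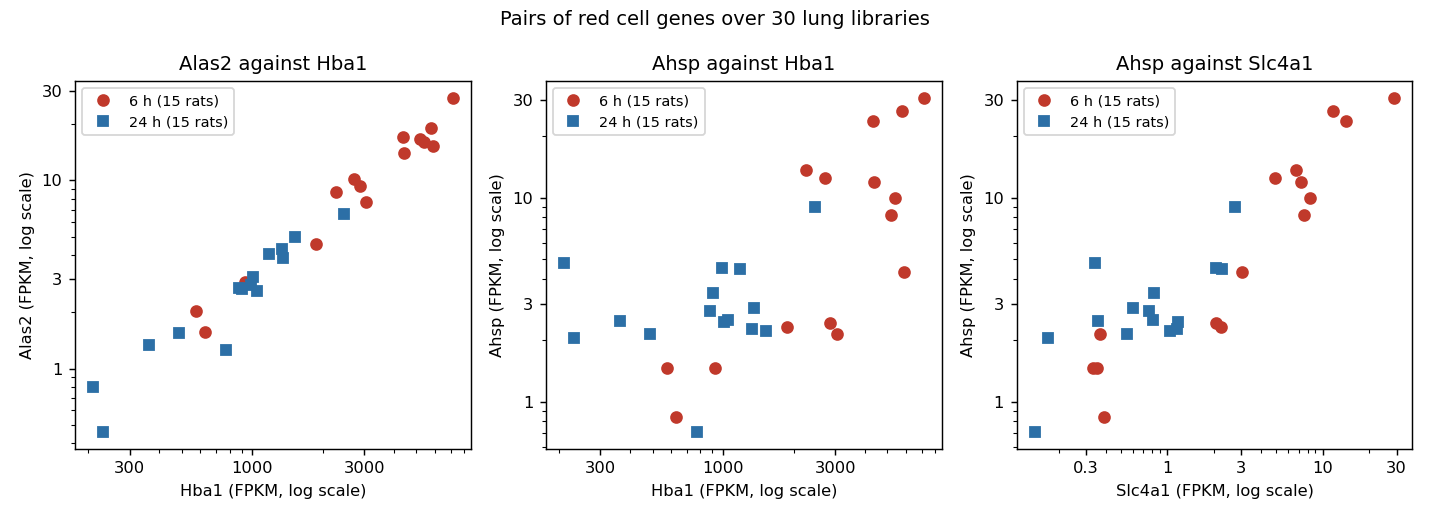
Alas2 against Hba1, Ahsp against Hba1 and Ahsp against Slc4a1, in FPKM on log axes, 1 point per rat lung at 6 h (circles) or 24 h (squares). Alas2 and Hba1 lie along one line at both times (r of 0.98), while Ahsp spreads widely at a given Hba1 level (r of 0.68).

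Emo-24h showed the split between the genes within a group. Replicates 2 and 3 had the lowest Hba1, Hba2 and Hbb values of all 30 libraries and Ahsp levels of 4.76 and 2.05 FPKM, so their Ahsp to Alas2 ratio was 5.95 and 4.46, against 1.29 in replicate 1. Over the 15 libraries at 6 h this ratio was 0.260 to 1.56, with a median of 0.625, and over the 15 at 24 h the median was 1.10, with Sham-24h at 1.35 to 1.86, DEX-24h at 0.799 to 1.63, SAP-24h at 0.527 to 1.04 and Con-24h at 0.440 to 0.977. Ahsp and Alas2 were both counted with few reads in those rats.

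The log2 ratio of Alas2 to Hbb, each as FPKM + 1, was lower at 24 h by 0.32, at -6.68 ± 0.658 (SD, n = 15) against -6.36 ± 0.330 at 6 h. A permutation test gave p = 0.0725. With 1 library left out the permutation p ran from 0.0231 to 0.185, and it was under 0.05 without DEX-6h replicate 1 (0.0469), Sham-24h replicate 1 (0.0286) or Emo-24h replicate 2 (0.0231). The value also hung on the pseudocount: with 0.1 FPKM in its place the difference was -0.64 (permutation p 5e-05). With Slc4a1 as numerator and a pseudocount of 1 FPKM it was -0.18 (permutation p 0.585), and with Ahsp 0.29 (permutation p 0.421). Alas2 against the sum of the globins Hba1, Hba2 and Hbb, also with 1 FPKM, gave 0.16 (permutation p 0.231). These ratios were not repeated with 0.1 FPKM. Median levels at 24 h were 0.81 FPKM for Slc4a1, 2.52 for Ahsp and 2.67 for Alas2, below or near the pseudocount. The ratios therefore cannot settle the size or direction of a change. Within the treatments, the Alas2 to Hbb difference ran from -0.69 in SAP to 0.21 in Emo, with exact permutation p from 0.1 to 0.9, where 0.1 is the smallest that 3 against 3 rats allow.

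The levels of the beta globin rows stood in different ratios in different rats. A second chromosome 1 row, AC113925.2 (ENSRNOG00000061299), is described in the table as hemoglobin subunit beta-2. After the values were seen, its ratios to Hbb were sorted and cut at their 2 widest gaps on the log2 scale. This rule gives 3 ranges whatever the values. In 20 libraries the ratio was 0.720 to 1.19. In 7 libraries, SAP-6h replicates 1 and 3, DEX-6h replicate 2, Sham-24h replicate 3, Con-24h replicates 1 and 3 and SAP-24h replicate 1, it was 0.311 to 0.360. In 3 libraries, SAP-24h replicates 2 and 3 and DEX-24h replicate 2, it was 0.111 to 0.120. By the same rule no library can lie between these ranges, so their number and the empty gaps are no test. All 3 rats of Sham-6h, Con-6h, Emo-6h and Emo-24h were in the first range, and no SAP-24h rat was.

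The Hbb to Hba1 ratio had medians of 0.331 in the 20 libraries, 0.413 in the 7 and 0.651 in the 3. Since Hbb enters both ratios, this is a description and no test, and the ranges of the first 2 sets overlapped, at 0.205 to 0.480 in the 20 libraries and 0.318 to 0.562 in the 7, while the 3 were at 0.622 to 0.688. With the 4 beta rows summed (Hbb, AC113925.2, Hbb-b1 and AABR07024041.1), the ratio to Hba1 had medians of 0.664, 0.561 and 0.737 in the same libraries. In the averaged time comparison the summed beta chains fell by 1.42 on the log2 scale (edgeR adjusted p = 0.00142), more than the Hbb row alone. In Emo rats the sum fell by 2.58 (edgeR adjusted p = 0.0142), and in SAP rats it was at -2.08 (edgeR adjusted p = 0.101) and, like the Hbb row, not called. Whether reads were divided between near-identical beta copies or the rats differed in the copies they carry was not tested.

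**Figure D4:**
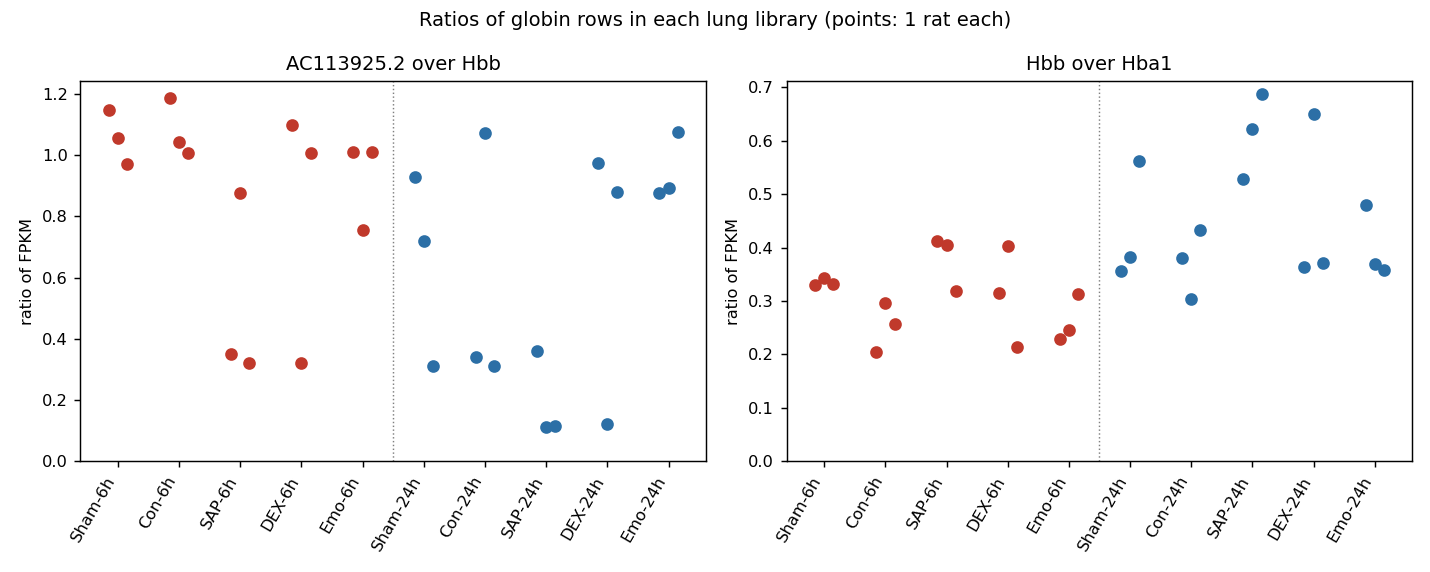
Ratio of FPKM of AC113925.2 to Hbb and of Hbb to Hba1 in each rat lung, by group (3 rats each). Cut at its 2 widest gaps, the first ratio gives ranges of 0.111 to 0.120, 0.311 to 0.360 and 0.720 to 1.19. The second is highest in SAP-24h replicate 3, at 0.688, and next in DEX-24h replicate 2, at 0.651.

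Other genes of red cells were taken from 5 lists of genes: other globins, heme synthesis, red cell membrane, erythroid transcription factors with the erythropoietin signal, and late red cell enzymes. In counts over these and later lists, lower and higher stand for called genes. In the averaged comparison of 24 h with 6 h, 20 genes of these lists were called lower and 0 higher, and the count was 17 to 21 with 1 library left out. For comparison, 2.61% of all genes were called lower, and the log2 median of all genes was 0.01. The membrane list had the most calls, 8 of 19 tested, with a median of -0.49. The blood group gene Kel fell by 3.12 on the log2 scale, Rhag, of the Rh complex, fell by 2.59 and Ermap fell by 2.15. These were scarce, with a Kel median of 0.63 FPKM at 6 h and 0.06 at 24 h. Of the late enzymes 6 of 22 were lower (median -0.34), among them Car1, a carbonic anhydrase, which fell by 2.71, Hemgn, which fell by 2.46, and the ubiquitin ligase genes Trim58 and Trim10, which fell by 2.36 and 2.24.

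Of the transcription factor list 2 of 13 were lower (median -0.23): Klf1 fell by 2.09 and Gata1 fell by 1.23. Klf1 stood at 2.25, 3.59 and 7.76 FPKM in SAP-6h and at 0.23, 0.28 and 0.42 in SAP-24h, and no 24 h library exceeded 0.87. Of the other globins 3 of 7 were lower (median -1.19), namely Hbq1b, which fell by 2.15, Hbb-b1, which fell by 1.97, and the alpha globin row LOC287167, which fell by 1.19. That list also holds myoglobin, cytoglobin and neuroglobin, which are not red cell genes. The embryonic chains Hbe2, Hbg1 and Hbz had 1, 2 and 2 reads over all libraries and were not tested. Of the heme synthesis list 1 of 18 was lower (median -0.23). That gene was Tspo2, an erythroid cholesterol-binding protein, which fell by 2.30. The other 17, most of them used by every cell, did not pass.

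By treatment, the 5 lists, with 7, 18, 19, 13 and 22 genes tested, had 21 genes lower in SAP, 14 in Emo, 5 in DEX and 0 in Con and Sham. Over all genes the shares called lower were 1.74%, 3.08%, 3.91%, 0% and 0.0126% in the same order. These SAP, Emo and DEX counts moved when 1 rat was left out, to 3 to 18, 7 to 12 and 0 to 8. In SAP the membrane list led with 11 of 19 lower, and Klf1 fell by 3.76, Gata1 fell by 2.45 and Epor, the erythropoietin receptor, fell by 1.77. In Emo 2 of 19 membrane genes were higher at 24 h, Tfrc, the transferrin receptor, at 1.44 and Xk at 1.27, beside 6.33% of all genes called higher, while 4 others were lower.

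**Figure D5:**
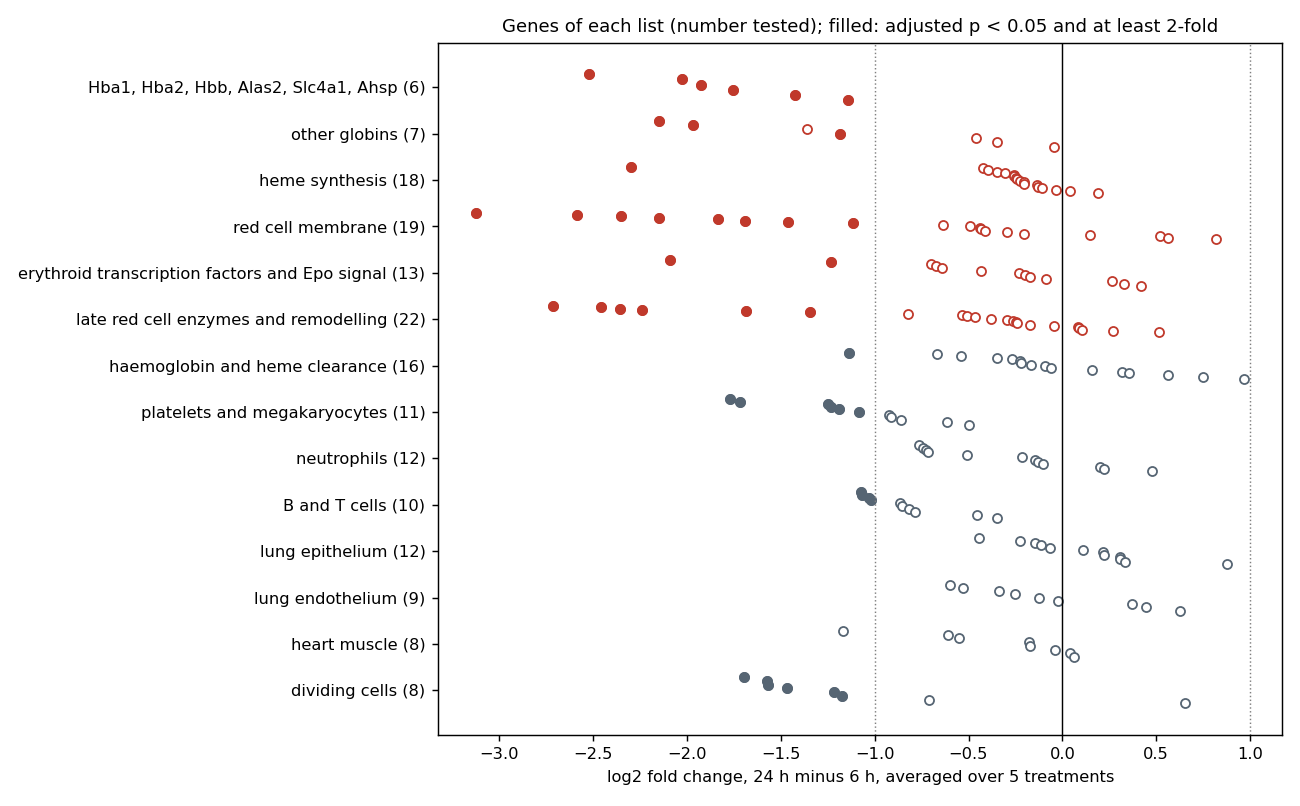
Log2 fold change from 6 h to 24 h, averaged over 5 treatments, of the genes of each list (number tested in brackets), with filled points for calls and dotted lines at a 2-fold change. The 6 hemoglobin and red cell genes all lie left of the line, as do 8 of 19 membrane genes, 6 of 11 platelet genes and 6 of 8 genes of dividing cells.

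Lists of other cell types moved over the same hours. Of 11 platelet genes 6 were lower at 24 h on average, beside 2.61% of all genes, with a median of -1.08: Gp9 fell by 1.77 and Gp1ba fell by 1.72, both of the platelet adhesion receptor. Their summed level was 47.0 to 351 FPKM at 6 h and 36.5 to 145 at 24 h. Of 8 genes of dividing cells 6 were lower (Plk1 fell by 1.70, Top2a fell by 1.58), with sums of 12.8 to 74.8 and 11.8 to 49.9 FPKM. These sums include Aurkb, whose median went the other way, from 7.72 FPKM at 6 h to 16.7 at 24 h. With any 1 library left out, the platelet count was 4 to 7 and that of dividing cells stayed at 6. Of 10 B and T cell genes 4 were lower (Cd3d fell by 1.07), with sums of 80.6 to 295 and 16.7 to 188 FPKM. No gene of the neutrophil, lung epithelium, lung endothelium or heart muscle lists was called. The part of these cell types in the fall of the red cell genes was not tested.

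Platelet genes had calls in comparisons where the 6 red cell genes had none, and the difference between the lists was not tested. In DEX rats, where none of the 6 red cell genes was called, 8 of 11 platelet genes and 9 of 10 B and T cell genes were lower at 24 h, beside 3.91% of all genes. With taurocholate at 6 h, 7 of 11 platelet genes were higher while 0 of the 6 were called, beside 1.79% of all genes called in either direction. In the same comparison 3 of 19 membrane genes rose, Ermap by 2.5, Ank1 by 1.64 and Sptb by 1.37 on the log2 scale (edgeR adjusted p = 0.0241, 0.00469 and 0.0206). Of the late genes 2 of 22 rose, Trim58 by 2.46 and Rgcc (edgeR adjusted p = 0.0269 and 0.00810). Ermap and Trim58 were scarce, each with a median of 0.13 FPKM at 6 h. Rgcc had a median of 178 FPKM at 6 h, far above Alas2, Slc4a1 and Ahsp.

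Among genes that clear hemoglobin and heme, 1 of 16 was lower on average, beside 2.61% of all genes. Hp, or haptoglobin, which binds free hemoglobin, fell by 1.14, with a median of 90.0 FPKM at 6 h and 31.2 at 24 h. In SAP rats Hp went the other way, from 25.3, 30.4 and 83.7 FPKM at 6 h to 53.9, 143 and 360 at 24 h (log2 change 2.07, SE 0.975, edgeR adjusted p = 0.191), and in the other treatments its changes were -1.62 to -2.28. None of these single-treatment Hp values was called. The heme oxygenase gene Hmox1 had a log2 change of -0.67, the hemopexin gene Hpx 0.75 and Cd163, the receptor for haptoglobin with hemoglobin, 0.97, and none of these was called. Within SAP, 1 of the 16 was called, Hpx, which was 1.49 higher at 24 h on the log2 scale (edgeR adjusted p = 0.0204), beside 2.42% of all genes called in either direction. Within DEX 1 of 16 was called, Cd163, which was 1.65 higher (edgeR adjusted p = 0.000760), beside 7.14%. Within Emo 3 of 16 were called beside 9.41%: Cd163 was 1.46 higher, Hmox1 fell by 1.16 and Slc11a1 fell by 1.02.

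Genes whose course was most like that of the 6 were ranked among 12399 genes with a mean of at least 1 FPKM, by the correlation over 30 libraries with the mean standardised level of the 6. The first was Cd52, a leukocyte surface glycoprotein gene, at r of 0.907, followed by Klf1 at 0.898 and Lgals5, a galectin gene, at 0.879. Bpgm, the enzyme that makes the oxygen-releasing metabolite of red cells, was at 0.802, and Fech, which inserts iron into heme, closed the first 10 at 0.738. Fam46c (0.792), Ube2o (0.766), Ybx3 (0.757), Rhd (0.755) and Ogdhl (0.755) lay between. With rank correlation 8 of these 10 stayed among the first 10, and with deviations from group means 6 did. These values describe 30 libraries that share the time difference and carry no test.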

How the data were processed

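Lungs of 30 rats in 10 groups of 3 were measured by poly(A) RNA-seq. The authors mapped paired-end reads to the rat Ensembl v6 genome with TopHat2, allowing 2 mismatches, and discarded multi-mapped reads. The deposited read counts per gene are raw, and the counting program is not given in the sources used here. The deposited FPKM values are scaled by the authors to transcript length and library size and rounded to 2 decimals. Counts were tested with edgeR 4.0.16 (R 4.3.3): filterByExpr (minimum count 10, minimum total 15), TMM scaling and a quasi-likelihood fit of all 10 groups with 20 residual degrees of freedom. Contrasts covered 21 pairs of groups, 3 averages and 3 changes of an effect with time, with Benjamini-Hochberg adjustment over 15934 genes, and a call needed a change of at least 2-fold with an adjusted p under 0.05. FPKM values served for levels, ratios and correlations, on log2(FPKM + 1) with 100000 permutations (numpy 2.4.6, scipy 1.17.1). Genes named were the 6 genes, up to 4 by size among called genes of each of 13 lists, and the first 10 by likeness with globins left out. Some others (such as AC113925.2 and genes of hemoglobin clearance) were named after their values were seen. The 6 genes and the lists were chosen with earlier results of these data known. In simulated counts for SAP-24h against Sham-24h, 84 of 100 genes changed 4-fold and 86 of 100 changed 8-fold were called, with 5 unchanged genes called. The changed genes were drawn at random from all genes tested, so these shares do not hold for the 6 genes. In SAP-6h against Sham-6h the 6 were higher by 4.08-fold (Hba2) to 8.67-fold (Slc4a1), and none was called. Alternatives were DESeq2 1.42.0, no filter or a stricter one, fits of the compared groups alone, a replicate block, other pseudocounts and each library left out. Promoter stretches came from RefSeq (GRCr8). No column was left unmapped (0), and protein sequences and a genome were not used here. A gene of the red cell membrane list is not reported here by name.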

Additional observations from a re-analysis of the deposited data

How the results depend on the processing

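In the 2 pairs of groups with calls, 10 of 28 alternative counts of the 6 genes called moved by over 1.5 times. In the 19 pairs with 0 calls, 3 of 266 alternatives made a call. In the averages 2 of 85 moved, and for changes of an effect with time 0 of 97 made a call. In SAP over time the count was 3 with a replicate block, beside 1.57% of all genes called lower, and 0 to 3 with 1 library left out. In Emo over time it was 3 to 5 with 1 library left out, in DEX over time 0 to 1, in DEX-6h against SAP-6h 0 to 2 and for taurocholate at 6 h 0 to 2. Emo-24h against DEX-24h had 1 call, Slc4a1, with the 2 groups fitted alone, beside 5.40% of all genes, and the average over Sham and Con had 0. The replicate numbers did not pair the rats, since the median correlation of same-numbered deviations was -0.00648 over 135 pairs against 0.00965 for other pairs and 8 of 30 libraries matched their own number best. Of 940 alternative log2 changes, 874 kept direction and call, 45 lost the call, 5 gained it and 16 turned direction. With 1 library left out, the Sham changes over time were -1.70 to 0.55 for Hba1, -1.71 to 0.65 for Hba2, -1.54 to 1.16 for Hbb, -1.79 to 0.36 for Alas2, -2.04 to 1.84 for Slc4a1 and -1.15 to 1.60 for Ahsp. Hbb in Sham was -0.27 with the 4 beta rows summed. Ahsp in Con was -1.02 to 0.17, Slc4a1 in DEX -2.0 to 2.27, Ahsp in DEX -1.79 to 1.35, and Hba2 in Emo-6h against SAP-6h -0.52 to 0.086. None of these was called with all libraries. The 21 genes of the 5 red cell lists lower in SAP became 8 with its groups fitted alone and 3 to 18 with 1 library left out, the 14 in Emo became 7 to 12 and the 5 in DEX 0 to 8. The Alas2 to Hbb difference was -0.39 to -0.22 with 1 library left out and -0.64 with a pseudocount of 0.1. With a pseudocount of 1 it was 0.29 with Ahsp as numerator and 0.16 with the summed globins as denominator. Of the 10 genes most alike, 6 remained with deviations from group means. The cause was not tested for any of these. The lowest counts of Ahsp, Slc4a1 and Alas2 were 14, 23 and 26 reads, and the part of depth in their spread was not tested. The 15 correlations between the 6 genes over 30 libraries were 0.68 to 0.99, and 0.63 to 0.99 over their alternatives, where Hba1 with Slc4a1 dropped by 0.17 in deviations from group means.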

Other observations

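The alpha globin row LOC287167 (ENSRNOG00000045989, chromosome 10) had 0 reads in Sham-6h replicate 1 and in SAP-24h replicate 2, although Hba1 stood at 2711 and 1333 FPKM in those rats. In the other 28 libraries it had 49 to 1899 reads. As a percentage of the Hba1 level it ran from 0 to 2.60, with a median of 1.60. The reads of this row and of Hba1 and Hba2 may be shared between near-identical copies, and their part in these values was not tested.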
